A study of Homo sapiens with 12 samples.

Results

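Above a set mean level, PROC, COL24A1, BLNK and SERPINF1 rose most with the FLT3 inhibitor quizartinib in MOLM-13 leukemia cells in regular medium. AHNAK is a far more abundant transcript that rose with them. The first 4 were the top 4 by log2 fold change of quizartinib against vehicle in regular medium. They were taken from the 7698 genes that passed the test there and had a mean level of at least 10 CPM. CPM are read counts scaled to a common library size. This level was reached through the drug groups: PROC and BLNK had group means above 10 CPM only with quizartinib in regular medium. COL24A1 and SERPINF1 had such means only in the 2 quizartinib groups. AHNAK was added for its abundance, since none of the genes with a higher mean level than AHNAK was at least 2-fold higher with the drug (0 genes). The 5 genes are 5 of the 57353 gene names in the count table, and all 5 were among the 12998 genes tested. The genes were thus chosen by their fold change in this comparison and by their mean level over the 12 libraries, so these values are given as a description with no test. With the mean taken over the 6 RPMI libraries alone, a choice tried after seeing the data, ENHO ranked 1 and PROC, COL24A1, BLNK and SERPINF1 ranked 2 to 5, and AHNAK was still above every gene that was at least 2-fold higher.

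MOLM-13 is an established human acute myeloid leukemia (AML) line that carries an internal tandem duplication in the receptor kinase FLT3 (FLT3-ITD), and the labels give its genotype as WT. Cells were exposed for 15 hr to 3 nM quizartinib (AC220) or to DMSO vehicle, either in RPMI or in hBMSC-CM, a mix of RPMI with filtered conditioned medium of HS-5, a human stromal line from bone marrow. Each of the 4 groups (vehicle in RPMI, quizartinib in RPMI, vehicle in hBMSC-CM and quizartinib in hBMSC-CM) had 3 libraries, all from this 1 line, so a value here describes MOLM-13 and not AML in general. The poly-A RNA libraries held 19966546 to 31546104 counts in genes, and 3 counts, the limit that a count of 0 allows, came to between 0.0951 and 0.150 CPM. The study describes its replicates as biological, but the labels tie none of these libraries to separate cultures, so the p-values measure only the spread between these libraries. These are bulk samples, in which fewer cells with a transcript and less of it per cell cannot be told apart.

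The 5 genes belong to different systems. Protein C, encoded by PROC, is a vitamin K-dependent protease zymogen made mainly in the liver that, once activated by thrombin bound to thrombomodulin, cleaves clotting cofactors and so limits coagulation. COL24A1 encodes a fibrillar collagen chain known from bone and cornea. BLNK is the adaptor that SYK phosphorylates below the B cell receptor and that gathers BTK and phospholipase C gamma. SERPINF1 encodes pigment epithelium-derived factor (PEDF), a secreted serpin that does not inhibit proteases and is known for restraining blood vessel growth. AHNAK is a very large scaffold protein at the cell membrane that binds annexin A2, S100A10, actin and calcium channels. FLT3-ITD is a constantly active form of the receptor that drives growth through STAT5, RAS and PI3K signaling, and quizartinib blocks its kinase activity.

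The 5 genes lie on different chromosomes (GRCh38, GENCODE annotation). PROC (ENSG00000115718) spans chr2:127418427-127429242 on the plus strand with 2491 exonic bases. COL24A1 (ENSG00000171502) is the longest gene of the 5, at chr1:85729233-86156943 on the minus strand with 9568 exonic bases. BLNK (ENSG00000095585) lies at chr10:96189171-96271587 on the minus strand with 10554 exonic bases. SERPINF1 (ENSG00000132386) lies at chr17:1762029-1777565 on the plus strand with 2990 exonic bases. AHNAK (ENSG00000124942) lies at chr11:62433542-62556235 on the minus strand and has 19466 exonic bases, most of which lie in its giant coding exon.

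The promoters are shown because the start sites of these genes differed in CG content. They were taken from RefSeq (GRCh38.p14), in which 4 of the 5 genes had an entry, and SERPINF1 was not among them. Each is printed from 5′ to 3′ on the gene's strand up to the start of transcription, without exon bases, and capitals mark each C followed by G (CG), a feature chosen after values were seen. The stretches are chr2:127418177-127418426 for PROC, chr1:86156773-86156896 for COL24A1, chr10:96271588-96271819 for BLNK and chr11:62545827-62546076 for AHNAK, and those of COL24A1 and AHNAK lie inside longer transcripts of the same gene.
PROC: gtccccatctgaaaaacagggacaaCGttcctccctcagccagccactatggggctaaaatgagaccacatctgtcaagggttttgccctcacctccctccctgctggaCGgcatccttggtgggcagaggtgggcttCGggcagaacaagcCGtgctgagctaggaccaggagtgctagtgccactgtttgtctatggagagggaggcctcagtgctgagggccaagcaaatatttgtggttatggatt
COL24A1: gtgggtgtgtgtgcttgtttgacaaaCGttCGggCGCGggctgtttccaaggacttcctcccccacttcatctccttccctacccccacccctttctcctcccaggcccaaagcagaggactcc
BLNK: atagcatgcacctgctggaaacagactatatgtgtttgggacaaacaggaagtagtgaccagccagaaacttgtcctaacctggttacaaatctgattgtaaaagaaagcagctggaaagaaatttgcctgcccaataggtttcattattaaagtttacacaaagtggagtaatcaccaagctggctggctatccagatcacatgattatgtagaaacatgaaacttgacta
AHNAK: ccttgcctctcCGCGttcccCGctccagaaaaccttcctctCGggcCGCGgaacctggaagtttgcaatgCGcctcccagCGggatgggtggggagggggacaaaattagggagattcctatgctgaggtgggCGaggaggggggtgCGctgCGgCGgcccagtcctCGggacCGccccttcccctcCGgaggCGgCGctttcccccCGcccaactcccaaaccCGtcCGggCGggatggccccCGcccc

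In the 250 bases before its start, unprinted and exon bases included, AHNAK had 22 CG and COL24A1 had 16, of which 4 lie in the printed stretch, against a median of 11 over all 35116 promoter windows (quartiles 3 and 23). Fewer CG than in AHNAK were found in 72.0% of windows, and fewer than in COL24A1 in 59.0%. PROC had 4 CG, with fewer in 29.3% of windows, and 3 CG before another start that RefSeq lists for it. BLNK had 1 CG, with fewer in 6.06% of windows. BLNK alone lay outside the quartiles. Each window was searched on both strands for FOXO (GTAAACA), STAT (TTCNNNGAA), E-box (CACGTG) and AP-1 (TGANTCA) motifs. None of these letters occurred in a window of the 4 genes, and 3.42%, 7.66%, 7.26% and 7.71% of all windows held them, in that order.

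Levels are given below as CPM scaled by TMM factors, for replicates 1, 2 and 3 of each group. PROC had 2.39, 1.72 and 2.54 CPM with vehicle in RPMI and 32.4, 36.4 and 34.2 CPM with quizartinib in RPMI. In hBMSC-CM it had 0.594, 0.501 and 1.14 CPM with vehicle and 5.19, 4.13 and 5.20 CPM with quizartinib. The 4 groups did not overlap, and the vehicle libraries in hBMSC-CM, with only 18, 10 and 24 counts, were the lowest. Counting error alone put the smallest of these, 10 counts, between 4.80 and 18.4 (95% exact Poisson interval, counting error only).

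COL24A1 had 2.53, 2.15 and 3.14 CPM with vehicle in RPMI and 41.6, 40.4 and 35.7 CPM with quizartinib in RPMI. In hBMSC-CM it had 1.25, 1.10 and 1.76 CPM with vehicle, from 22 to 38 counts, and 12.3, 12.2 and 12.04 CPM with quizartinib. The groups of this collagen gene did not overlap either. Its 3 quizartinib libraries in hBMSC-CM were the closest of any group of the 5 genes, with a coefficient of variation of 0.905%.

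BLNK had 5.06, 4.07 and 4.10 CPM with vehicle in RPMI and 46.2, 45.2 and 43.3 CPM with quizartinib in RPMI. In hBMSC-CM it had 1.85, 1.70 and 1.23 CPM with vehicle and 7.57, 7.51 and 6.19 CPM with quizartinib. All quizartinib libraries of this B cell adaptor gene were above all vehicle libraries, across both media, but the drug level in hBMSC-CM was only 1.61 times the vehicle level in RPMI.

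SERPINF1 had 9.61, 8.02 and 8.85 CPM with vehicle in RPMI and 84.7, 88.7 and 94.7 CPM with quizartinib in RPMI. In hBMSC-CM it had 7.45, 7.31 and 8.59 CPM with vehicle and 39.0, 35.3 and 35.9 CPM with quizartinib. The vehicle groups of the 2 media overlapped, which none of the other 4 genes showed.

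AHNAK had 1350, 1344 and 1471 CPM with vehicle in RPMI and 3895, 4479 and 3893 CPM with quizartinib in RPMI. In hBMSC-CM it had 1227, 1037 and 926 CPM with vehicle and 1869, 2293 and 2063 CPM with quizartinib. AHNAK ranked 22 of the 12998 genes by mean CPM, and a single library held between 19515 and 128846 of its counts. Its groups did not overlap, although vehicle replicate 1 in hBMSC-CM lay close below the lowest RPMI vehicle library.

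**Figure D1:**
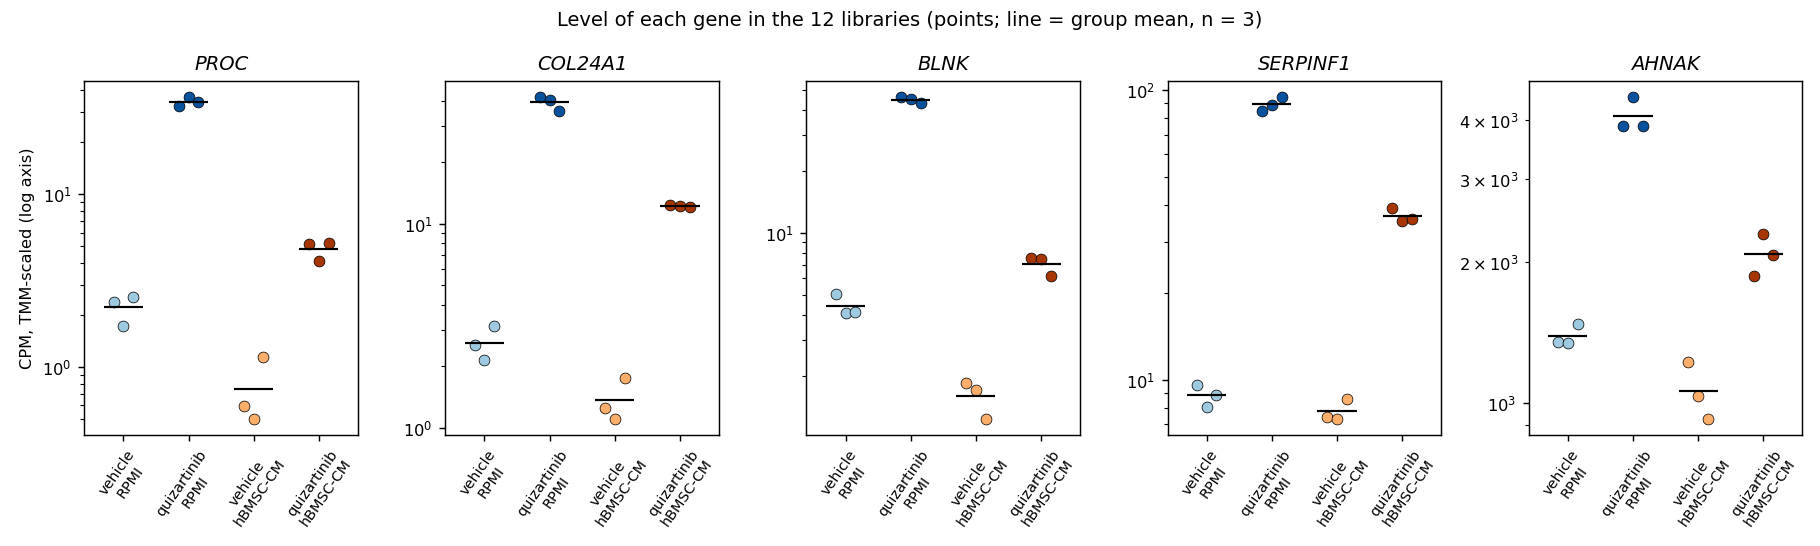
Level of PROC, COL24A1, BLNK, SERPINF1 and AHNAK in each of the 12 libraries, as TMM-scaled CPM on a log axis whose range differs by panel (points are libraries, lines are group means, n = 3). The 3 quizartinib libraries in RPMI are highest for every gene, quizartinib in hBMSC-CM comes next, and the vehicle groups are lowest.

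All 5 genes had the same order of group means: quizartinib in RPMI, quizartinib in hBMSC-CM, vehicle in RPMI and vehicle in hBMSC-CM. The share of all tested genes with this order, or with 4 groups that do not overlap, was not counted. The pattern is not particular to the 5, since between 911 and 1120 tested genes had a Pearson correlation over 0.95 with each of them. The largest step differed between genes. PROC and BLNK stepped most between quizartinib in RPMI and quizartinib in hBMSC-CM, with ratios of means of 7.09 and 6.33. COL24A1 and SERPINF1 stepped most between quizartinib in hBMSC-CM and vehicle in RPMI, with ratios of 4.67 and 4.17. For AHNAK the steps were 1.97, 1.49 and 1.31 from the highest group down. SERPINF1 in vehicle, with a ratio of 1.13 between RPMI and hBMSC-CM, was the pair of neighbors whose libraries overlapped.

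Per kilobase of exon, which allows levels to be set side by side between genes, AHNAK stood far above the others, at 71.3 CPM per kb with vehicle in RPMI and 210.1 with quizartinib in RPMI. SERPINF1 followed at 2.95 and 29.9 CPM per kb. PROC was at 0.890 and 13.8 CPM per kb, COL24A1 at 0.272 and 4.10, and BLNK at 0.418 and 4.25. With quizartinib in RPMI the value of PROC on this scale exceeded those of COL24A1 and BLNK, although its CPM was the lowest of the 5. The annotated exons came to 2491 bases for PROC and 10554 for BLNK, and which transcripts were made was not tested. In hBMSC-CM with quizartinib the order was AHNAK at 106.6, SERPINF1 at 12.3, PROC at 1.94, COL24A1 at 1.27 and BLNK at 0.671 CPM per kb.

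Quizartinib against vehicle in RPMI is the comparison that chose the genes. The log2 fold change there was 3.96 ± 0.126 (standard error) for PROC and 3.93 ± 0.108 for COL24A1, which is 15.5-fold and 15.2-fold. BLNK followed with 3.34 ± 0.0931 and SERPINF1 with 3.33 ± 0.0732, both 10.1-fold, and AHNAK with 1.56 ± 0.0862, which is 2.94-fold. The next gene above 10 CPM after SERPINF1 was CIITA, the master regulator of MHC class II genes, at 3.31, followed by the fatty acid receptor CD36 at 3.29 and the BH3-only gene BMF at 3.07. Another 22 genes below 10 CPM had a larger change than SERPINF1. In this comparison 79.3% of all tested genes passed the test (40.1% higher), the drug libraries were all above the vehicle libraries for 41%, and the median absolute log2 fold change was 0.48.

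The hBMSC-CM libraries, with the quizartinib libraries among them, entered the choice through the mean level. The values in stroma-conditioned medium are therefore also given as a description with no test. All 5 genes rose with quizartinib in hBMSC-CM, in a comparison in which 67.1% of all tested genes were called and 33.4% were called higher. COL24A1 rose by a log2 fold change of 3.16 ± 0.143, 8.91-fold. PROC rose by 2.72 ± 0.214, 6.61-fold. SERPINF1 rose by 2.25 ± 0.0796 and BLNK by 2.13 ± 0.145. AHNAK rose by 0.96 ± 0.0852, 1.95-fold. Every quizartinib library was above every vehicle library for each of the 5, which held for 34% of tested genes in this direction. By fold change in hBMSC-CM, COL24A1 ranked 8, PROC 18, SERPINF1 47, BLNK 55 and AHNAK 694 of all tested genes.

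**Figure D2:**
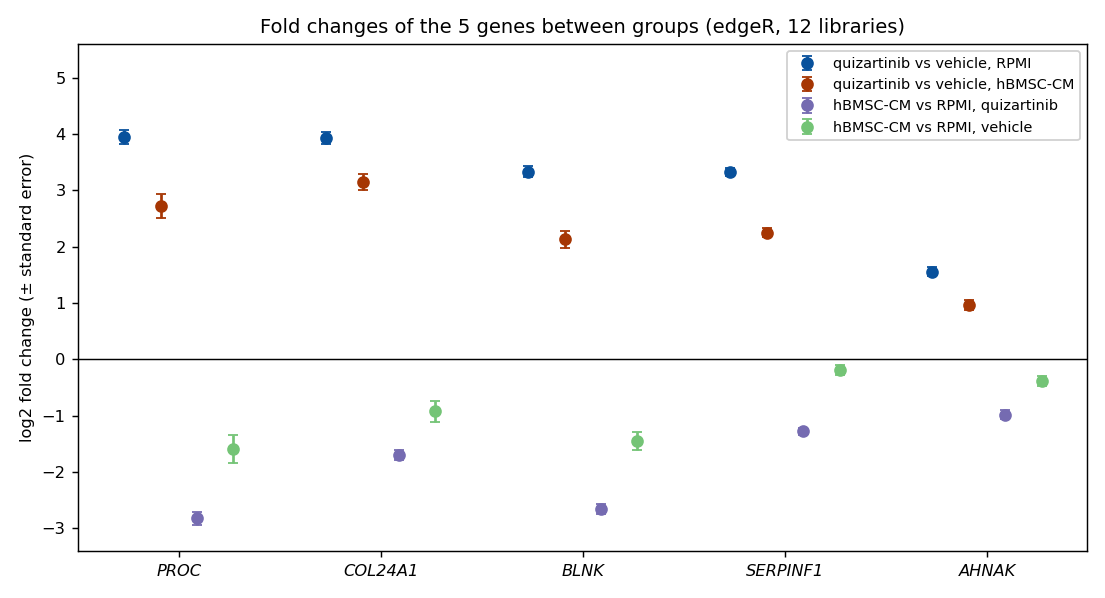
Log2 fold change of each gene with its standard error for 4 comparisons of the 12 libraries (edgeR). Points for quizartinib against vehicle lie above 0 for all 5 genes in both media, and points for hBMSC-CM against RPMI lie below 0, closest to it for SERPINF1 with vehicle at -0.19.

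With vehicle, most of these genes were also lower in hBMSC-CM than in RPMI. The 3 RPMI vehicle libraries of this comparison formed part of the fold change that chose the genes, so it is given as a description with no test. The log2 fold change was -1.59 ± 0.250 for PROC and -1.45 ± 0.157 for BLNK. It was -0.92 ± 0.190 for COL24A1 and -0.38 ± 0.0846 for AHNAK. SERPINF1 was at -0.19 ± 0.0947, and its libraries of the 2 media overlapped. Of all tested genes, 32.1% were called in this comparison and 15.5% were called lower. The libraries of the 2 media did not overlap for PROC, COL24A1, BLNK and AHNAK, with hBMSC-CM lower, as for 22.3% of all tested genes.

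With quizartinib, levels in hBMSC-CM were below those in RPMI by larger amounts, given as a description since the RPMI quizartinib libraries chose the genes. The log2 fold change was -2.82 ± 0.111 for PROC, -2.66 ± 0.0870 for BLNK, -1.69 ± 0.0844 for COL24A1, -1.28 ± 0.0617 for SERPINF1 and -0.98 ± 0.0849 for AHNAK. The mean level in hBMSC-CM was 14.1% of that in RPMI for PROC and 15.8% for BLNK. It was 31.0% for COL24A1, 41.2% for SERPINF1 and 50.8% for AHNAK. In the vehicle groups the same shares were 33.6%, 36.1%, 52.6%, 88.2% and 76.6%, in that order of genes. Among all tested genes, 69.8% were called with quizartinib between the media and 34.3% were called lower in hBMSC-CM. The libraries of the 2 media did not overlap, with hBMSC-CM lower, for 35.2% of all tested genes and for each of the 5.

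The drug response, as a log2 fold change, was smaller in hBMSC-CM than in RPMI for each of the 5 genes. The difference (the interaction of drug and medium) was -1.23 ± 0.310 for PROC, -1.20 ± 0.196 for BLNK, -1.09 ± 0.113 for SERPINF1, -0.77 ± 0.217 for COL24A1 and -0.59 ± 0.119 for AHNAK. Both responses are measured against their own vehicle, and the choice of genes by the RPMI response favors a smaller value elsewhere, so no test is given. As a share, the response in hBMSC-CM was 0.689 of that in RPMI for PROC, 0.803 for COL24A1, 0.639 for BLNK, 0.674 for SERPINF1 and 0.619 for AHNAK. The 1252 genes that rose at least 2-fold in RPMI had a median share of 0.648 (quartiles 0.513 and 0.790), so PROC, BLNK, SERPINF1 and AHNAK lay between those quartiles and COL24A1 lay just above.

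**Figure D3:**
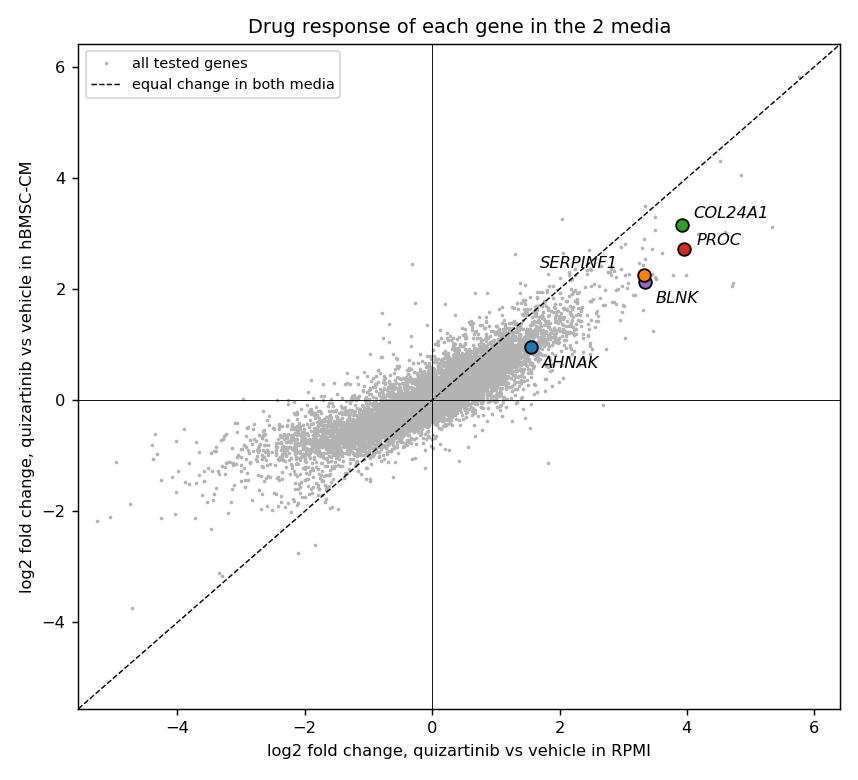
Log2 fold change with quizartinib in RPMI (horizontal) and in hBMSC-CM (vertical) for all 12998 tested genes, with PROC, COL24A1, BLNK, SERPINF1 and AHNAK in color and a dashed line for equal change. The 5 genes lie below the dashed line, as do many of the other genes that are higher with the drug.

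Reads of other genes could enter the counts of BLNK, since strand use in the counting is not stated. BLNK overlaps ZNF518A, a zinc finger gene on the other strand, over 16118 bases. ZNF518A was at 106 ± 4.39 CPM (SD, n = 3) with vehicle in RPMI and at 157 ± 9.59 CPM with quizartinib, a log2 fold change of 0.56 against 3.34 for BLNK. The processed pseudogene NPM1P25 lies within BLNK on the same strand, and its mean count went from 2.67 with vehicle in RPMI to 38.7 with quizartinib. In the 3 quizartinib libraries in RPMI, NPM1P25 had 3.31% to 3.72% of the count of BLNK. Its level was too low for the test, and its part in the BLNK count was not tested. PROC holds the microRNA gene MIR4783, whose mean count was at most 0.333 in any group.

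Within 500 kb of the 5 start sites, 59 other genes were tested, of which 20 were called higher and 27 lower with quizartinib in RPMI, and their median on the log2 scale was -0.08. Over all tested genes 40.1% were called higher and 39.2% lower, near the shares of these neighbors. The nearest tested genes of PROC were the kinase gene MAP3K2 at 0.93 ± 0.0430 and IWS1, an elongation factor partner, at -0.52 ± 0.0468. Those of COL24A1 were ZNHIT6 at -0.59 ± 0.0521 and ODF2L at 0.49 ± 0.0780. Around BLNK, ZNF518A was at 0.56 ± 0.0479 and TM9SF3 at -0.25 ± 0.0401. Around AHNAK, ASRGL1 was at -0.75 ± 0.0938 and TUT1 at -0.07 ± 0.125. All of these values but that of TUT1 passed the test.

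The neighbor SERPINF2 of SERPINF1, which encodes the plasmin inhibitor alpha-2-antiplasmin, starts 19.2 kb away and was the only 1 of the 59 genes with a log2 fold change of at least 3. SERPINF2 was at 0.695 ± 0.249 CPM (SD, n = 3) with vehicle in RPMI and 7.20 ± 0.375 CPM with quizartinib in RPMI. In hBMSC-CM it was at 1.04 ± 0.581 CPM with vehicle and 3.08 ± 0.0840 CPM with quizartinib. The log2 fold change was 3.32 ± 0.217 in RPMI (edgeR adjusted p = 8.32e-12) and 1.62 ± 0.241 in hBMSC-CM (edgeR adjusted p = 5.38e-06). These were 3.33 and 2.25 for SERPINF1. Of the 17 tested genes near SERPINF1, 8 were called higher in RPMI and 6 lower, near the shares over all tested genes, and the higher ones included SLC43A2 at 1.31 ± 0.0520 and WDR81 at 1.22 ± 0.0529. On its other side, the replication protein gene RPA1 fell by 0.61 ± 0.0785.

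**Figure D4:**
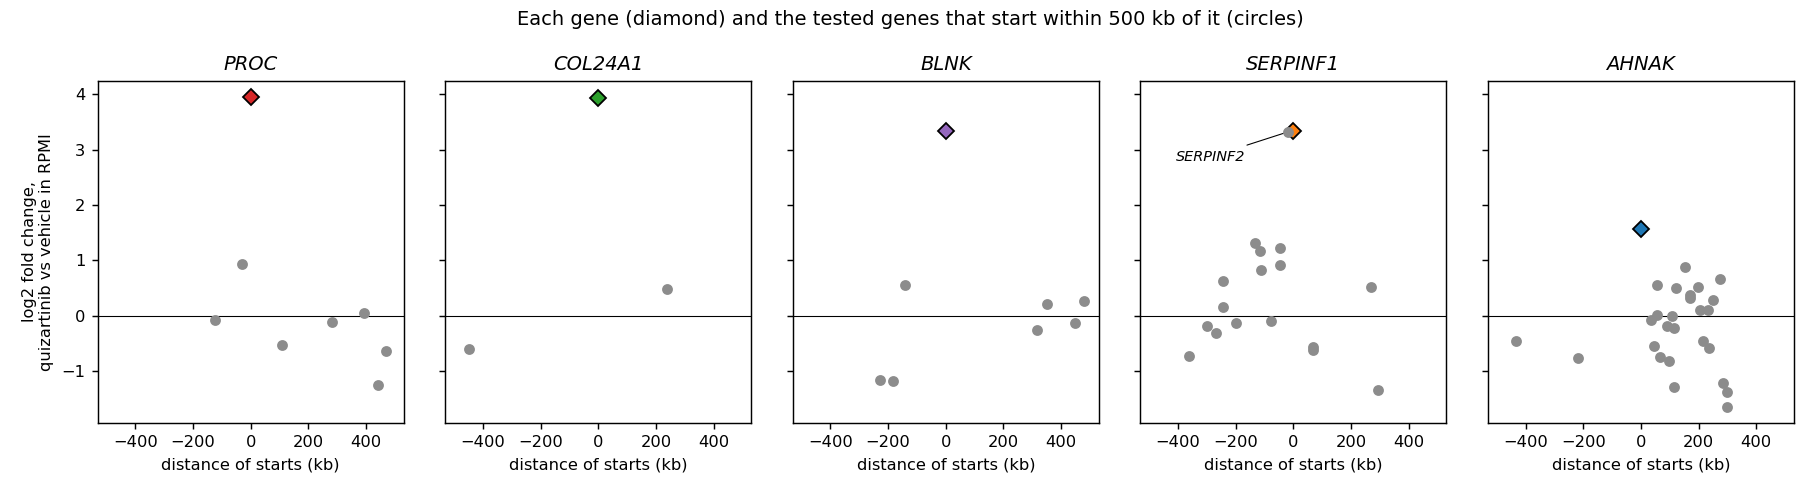
Log2 fold change with quizartinib in RPMI of each gene (diamond, at distance 0) and of the 59 tested genes whose start lies within 500 kb (gray circles), by distance in kb along the chromosome. SERPINF2, whose circle at 3.32 partly covers the diamond of SERPINF1, is the only neighbor above 3, and the other neighbors lie at or below 1.31.

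Genes that work with protein C were called in both directions. Of 28 coagulation genes, 10 were expressed enough to be tested, and with quizartinib in RPMI 2 were called higher and 5 lower, against 40.1% higher and 39.2% lower over all tested genes. The median of the 10 was -0.10, and that over all tested genes was 0.02. PROS1, which encodes the protein C cofactor protein S, rose by 0.76 ± 0.0670 in RPMI and 0.53 ± 0.0656 in hBMSC-CM. THBD, which encodes thrombomodulin, fell by 1.29 ± 0.0658 in RPMI, from 37.8 to 15.4 CPM, and by 0.17 ± 0.0582 in hBMSC-CM, from 49.9 to 44.3 CPM. PROCR, the endothelial protein C receptor, was at 0.07 ± 0.0757 and -0.14 ± 0.0708, and passed in neither medium. Tissue factor (F3), which starts coagulation, fell by 2.65 ± 0.101 in RPMI and by 0.20 ± 0.0788 in hBMSC-CM. The urokinase receptor PLAUR fell by 2.65 ± 0.0519 and 1.45 ± 0.0473. VKORC1L1 and GGCX, which serve the vitamin K-dependent modification that protein C needs, were at -0.82 ± 0.0628 and 0.16 ± 0.0606 in RPMI, both past the test. VKORC1, of the same list, was at -0.01 ± 0.124 in RPMI and 0.01 ± 0.123 in hBMSC-CM, and passed in neither. In hBMSC-CM 3 of the 10 were called higher and 4 lower, near the 33.4% and 33.7% over all tested genes.

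Among 36 fibrillar collagens and collagen-processing genes, 17 were tested, with 2 called higher and 10 lower in RPMI (40.1% and 39.2% over all tested genes) and 3 higher and 7 lower in hBMSC-CM (33.4% and 33.7%). Their median was -0.29 in RPMI and -0.13 in hBMSC-CM. The 2 higher in RPMI were COL1A1, the alpha-1 chain of type I collagen, and CRTAP, part of the prolyl 3-hydroxylation complex. COL1A1 went from 3 to 6 counts per library with vehicle to 99 to 134 with quizartinib in RPMI (log2 fold change 4.72 ± 0.239). In hBMSC-CM it went from 3 to 7 counts with vehicle to 23 to 24 with quizartinib (2.10 ± 0.322, edgeR adjusted p = 8.04e-06). CRTAP rose by 0.35 ± 0.0416. COL27A1, the closest relative of COL24A1 among the fibrillar collagens, was at -0.12 ± 0.0666 in RPMI, which did not pass, and rose by 0.22 ± 0.0673 in hBMSC-CM. Among the 10 lower in RPMI were the crosslinking enzyme LOXL3 at -1.85 ± 0.145, the lysyl hydroxylase PLOD3 at -1.30 ± 0.0574 and the collagen chaperone SERPINH1 at -0.57 ± 0.0584. COLGALT1, which adds galactose to collagen, fell from 321 to 161 CPM.

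Most genes of the pathway that BLNK serves were expressed. Of 34 B cell receptor signaling genes 27 were tested, and 14 were called higher and 9 lower in RPMI, near the 40.1% and 39.2% over all tested genes. In hBMSC-CM 16 were called higher and 5 lower, against 33.4% and 33.7% over all tested genes. The list median was 0.15 in both media. SYK, the kinase upstream of BLNK, rose by 0.30 ± 0.0386 in RPMI and 0.19 ± 0.0388 in hBMSC-CM. BTK rose by 0.15 ± 0.0396 and 0.15 ± 0.0396, and PLCG2 by 0.58 ± 0.0512 and 0.35 ± 0.0519. The adaptor DAPP1 rose by 1.61 ± 0.0711 and 0.98 ± 0.0758, the surface receptor CD72 by 1.33 ± 0.183 and 1.30 ± 0.215, and RASGRP3 by 1.24 ± 0.165 and 1.24 ± 0.159. PTPN6, the phosphatase SHP-1 that restrains receptor signaling, fell by 2.10 ± 0.0447 in RPMI and by 0.52 ± 0.0420 in hBMSC-CM. LCP2, which encodes SLP-76, the relative of BLNK in T and myeloid cells, fell by 0.24 ± 0.0729 in RPMI and was at -0.11 ± 0.0743 in hBMSC-CM.

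Of 30 serpins and PEDF receptors 10 were tested, and 6 were called higher and 2 lower in RPMI (40.1% and 39.2% over all tested genes), with a median of 0.71. In hBMSC-CM 5 were called higher and 1 lower (33.4% and 33.7%), with a median of 0.35. The 2 lower in RPMI were SERPINB8 at -0.30 ± 0.0570 and SERPINH1. Beside SERPINF2, SERPINI2 rose by 2.26 ± 0.181 in RPMI and 1.36 ± 0.257 in hBMSC-CM, and SERPINI1, which encodes neuroserpin, by 1.19 ± 0.0972 and 0.60 ± 0.114. SERPINB1, an inhibitor of neutrophil proteases, rose by 1.07 ± 0.0424 and 0.65 ± 0.0425. PNPLA2, a lipase that binds PEDF, rose by 0.80 ± 0.0672 in RPMI and was at 0.10 ± 0.0701 in hBMSC-CM (edgeR adjusted p = 0.231). The PEDF receptor gene PLXDC2 rose by 0.62 ± 0.0452 and 0.74 ± 0.0461.

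Of 26 relatives and partners of AHNAK 23 were tested, and 14 were called higher and 6 lower in RPMI (40.1% and 39.2% over all tested genes), with a median of 0.42. In hBMSC-CM 11 were called higher and 5 lower (33.4% and 33.7%), with a median of 0.13. S100A10, which binds AHNAK together with annexin A2, rose by 0.45 ± 0.0784 in RPMI and was at 0.04 ± 0.0818 in hBMSC-CM (edgeR adjusted p = 0.715). ANXA2 itself was at 0.07 ± 0.0495 and -0.11 ± 0.0497 and passed in neither medium. ANXA4 rose by 1.41 ± 0.0599 and 1.04 ± 0.0597, and S100A4 by 0.80 ± 0.0460 and 0.58 ± 0.0466. S100A8 rose by 1.29 ± 0.261 and 1.43 ± 0.132, and ANXA1 by 0.58 ± 0.108 and 0.85 ± 0.0874. The kinase gene PRKCA fell by 0.70 ± 0.0859 and 0.33 ± 0.0821, and the membrane repair gene DYSF by 0.46 ± 0.0514 and 0.85 ± 0.0532. AHNAK2, the closest relative of AHNAK, was too low for the test, with a mean of 18.7 counts with vehicle and 53.3 with quizartinib in RPMI.

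**Figure D5:**
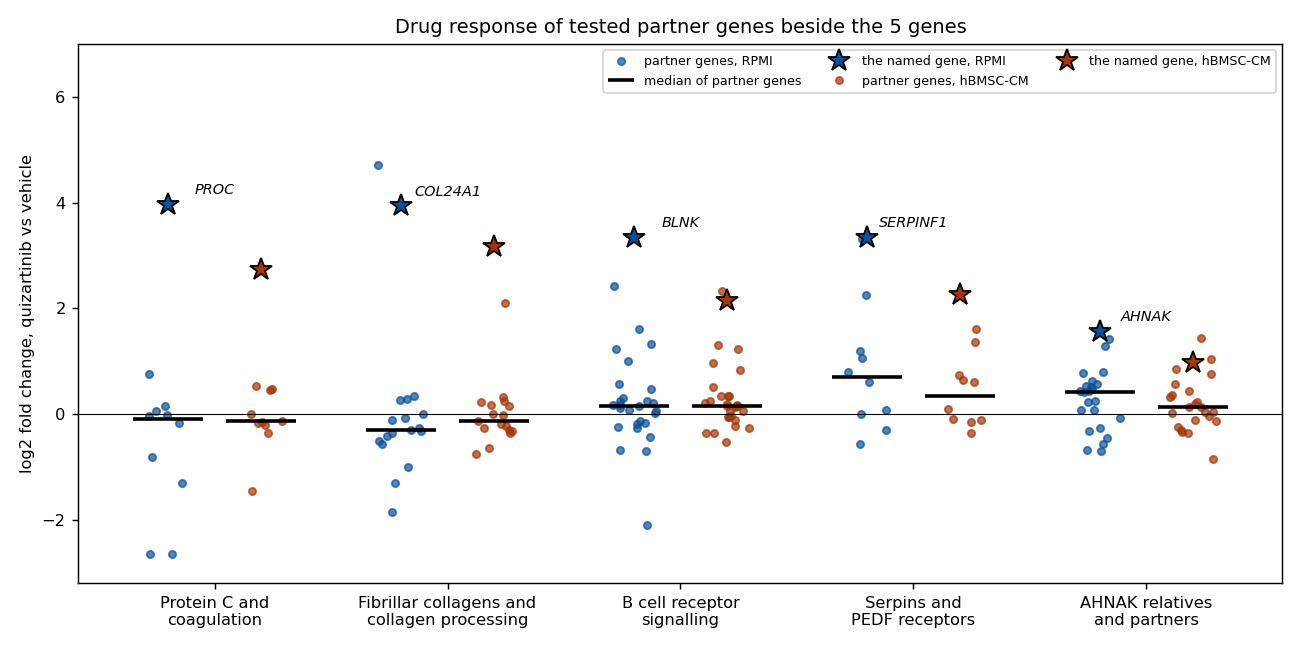
Log2 fold change with quizartinib of tested genes from 5 lists (circles, blue in RPMI and brown in hBMSC-CM), with the list's median (black line) and the gene each list was made for (star). The stars lie above most circles of their list, and COL1A1 at 4.72 is the circle above the star of COL24A1. The circle of SERPINF2 at 3.32 lies behind the star of SERPINF1.

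Many tested genes followed the same pattern over the 12 libraries as the 5 genes did. The closest ones named here were picked as the highest of all tested genes, so their values cannot be weighed against those between the 5. Pearson correlations of log2 CPM between the 5 genes were 0.922 to 0.989 over the 12 libraries, which fall into the 4 groups, and between 911 and 1120 tested genes had a correlation over 0.95 with each. The 3 closest to PROC were the RNase gene ZC3H12D (0.994), C9ORF106 (0.994) and SPEG (0.993). Those of COL24A1 were the lectin gene CLEC2D (0.997), CALCOCO1 (0.996) and the RNA sensor DDX58 (0.996). SSBP2 (0.999), the calpain inhibitor gene CAST (0.996) and IL3RA (0.996), which encodes the interleukin-3 receptor alpha chain CD123, were closest to BLNK. YPEL5 (0.997), OS9 (0.997) and ALDH3B1 (0.996) were closest to SERPINF1, and CLCN6 (0.997), GPATCH2L (0.996) and TNRC6B (0.996) to AHNAK. The likeness is in shape and need not be in size. SPEG had a log2 fold change of 3.05 with quizartinib in RPMI, where PROC had 3.96. SSBP2 had a log2 fold change of 1.25 with quizartinib in RPMI and CAST one of 0.92, where BLNK had 3.34.

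The cells carried the markers of the labeled cell type in all groups. Of 10 myeloid leukemia markers 8 were tested, of which 5 were called higher with quizartinib in RPMI and 3 (CD33, MPO and ITGAM) lower, and the summed level of the list was 747 to 768 CPM with vehicle in RPMI, 1291 to 1326 with quizartinib in RPMI, 874 to 899 with vehicle in hBMSC-CM and 1612 to 1708 with quizartinib in hBMSC-CM. CD68 and CD14 were too low for the test. The myeloid sum rests largely on LYZ and FLT3. With quizartinib in hBMSC-CM, LYZ had 21531 to 30477 counts a library, against 10323 to 14577 with vehicle. With quizartinib in RPMI, FLT3 had 9186 to 12885 counts and LYZ 7296 to 9992. With vehicle in RPMI these were 4476 to 6096 and 5648 to 7994. Of 10 B lineage markers, set beside BLNK, only PAX5 was tested, at 1.73 (log2 fold change with quizartinib) in RPMI and 1.25 in hBMSC-CM. The summed B lineage level was 2.50 to 3.21, 9.18 to 9.67, 2.53 to 3.39 and 7.03 to 7.20 CPM in the same order of groups, and VPREB1, IGLL1 and CR2 were at 0 in all libraries. Of 10 stromal markers, set beside COL24A1 and SERPINF1, COL1A1 and TAGLN were tested. Their sum was 3.53 to 4.04, 11.2 to 13.6, 3.06 to 3.84 and 6.31 to 7.15 CPM, and COL3A1, LUM, DCN, THY1 and POSTN were at 0. None of 8 hepatocyte markers, set beside PROC, was expressed enough to be tested (0 of 8). Their sum stayed between 0.0634 and 0.364 CPM in every library, with ALB, APOB, TTR, FGA, FGB and AHSG at 0. The B lineage and stromal sums moved with the drug in the same direction as BLNK and COL24A1. With quizartinib in RPMI, PAX5 held most of the B lineage sum, and COL1A1 and TAGLN most of the stromal sum. Of the lower stromal markers, FN1 had 22 to 24 counts with vehicle in RPMI and 11 to 20 with quizartinib. PDGFRB had 6 to 8 and 10 to 14 counts in the same groups. The part of such cells in the result was not tested.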

How the data were processed

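RNA-seq of MOLM-13 cells (3 libraries in each of 4 groups) was used as deposited: whole-number counts per gene. Per the labels and the study's methods, the authors made poly-A libraries, trimmed paired-end reads, aligned them with STAR 2.6.0a to hg38 (Ensembl), counted reads per gene and summed the deposited counts of IDs with the same name. The submitters' processing notes also list limma. Strand use in counting is not given in the sources used here. Strand would matter for BLNK, which overlaps a gene on the other strand.

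Genes whose mean over the libraries reached 1 count and 1 CPM were tested in edgeR 4.0.16 (TMM factors, quasi-likelihood test, two-sided) in 1 model with 4 group means and 8 residual degrees of freedom. P-values were adjusted by Benjamini-Hochberg over all 12998 tested genes, and genes with an adjusted p under 0.05 were called. CPM was computed from the deposited counts over tested genes, and standard errors were derived from the F statistic. The fit was tested on simulated data. Correlations used log2 CPM with a prior count of 2. Counting intervals (95%, exact Poisson) cover counting error only. Alternatives were other scalings, DESeq2 1.42.0, limma-voom 3.58.1, other filters, fits of 2 groups, a replicate block and leaving out each library.

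Besides the 5 genes, the text names the 3 genes of highest correlation with each, the nearest tested gene on each side, the next genes in rank, direct partners, and up to 3 called genes of largest change in each direction from each list. A gene that this rule names is not reported here. ENHO, SLC43A2 and WDR81, SERPINB1, VKORC1, FN1 and PDGFRB, the markers LYZ and FLT3, and the pseudogene NPM1P25 and MIR4783 were named after their values were seen. SERPINH1 and PLCG1 stand in 2 lists each. The 5 genes and all lists of genes, markers and motifs were chosen with earlier results of these data known. All 12 sample columns were matched to labels (0 unmatched). Coordinates are from GENCODE on GRCh38, another release than that used for counting.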

Additional observations from a re-analysis of the deposited data

Results flagged for a closer look

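Among 66 named genes other than the 5, the drug effect was called in both media but in opposite directions for 2. These were picked for that difference, so the interaction of drug and medium (edgeR) is given for them as a value with no test. S100A9, a calcium-binding protein gene of myeloid cells, went from 4.74 to 3.24 CPM with quizartinib in RPMI (log2 fold change -0.57 ± 0.137) and rose by 0.75 ± 0.0755 in hBMSC-CM, from 24.9 to 41.7 CPM. The interaction was 1.32. PLAU, which encodes urokinase, fell by 0.17 ± 0.0535 in RPMI, from 62.3 to 55.4 CPM, and rose by 0.45 ± 0.0494 in hBMSC-CM, from 117 to 160 CPM, with an interaction of 0.62. Groups of 3 libraries are too small for the test of single outlying libraries, which was not run.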

How the results depend on the processing

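Each of the 5 genes kept its direction in every comparison under all alternatives run, and no count of called genes moved by 1.5 times or more (480 values). Leaving out each library in turn gave log2 fold changes with quizartinib in hBMSC-CM of 2.54 to 3.11 for PROC, 3.04 to 3.35 for COL24A1, 1.99 to 2.28 for BLNK, 2.20 to 2.32 for SERPINF1 and 0.87 to 1.08 for AHNAK. For hBMSC-CM against RPMI with vehicle, PROC ranged from -1.98 to -1.41 and SERPINF1 from -0.26 to -0.11. Scaling by library size only moved the median quizartinib response over all genes (log2) to 0.11 in both media, and upper-quartile factors moved it to 0.13 in RPMI and 0.09 in hBMSC-CM. The share of calls that were higher in hBMSC-CM went from 49.8% to 62.8% and 60.03% under these, and each of the 5 genes still rose. By Spearman in place of Pearson correlation, the genes named as most like the 5 ranked between 1 and 1089. Same-numbered libraries of different groups did not deviate together (correlations -0.227 to 0.0979, none of 18 over 0.1), so the numbers were not read as pairs. With the replicate block, 10224 genes were called with quizartinib in RPMI and 8611 in hBMSC-CM, against 10307 and 8722 without it, and PROC in hBMSC-CM was at 2.73. The limit of depth lies in vehicle in hBMSC-CM, where PROC had 10 to 24 counts a library.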
